A study of Mus musculus with 61 samples.

Results

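The response of the mouse egg to fertilisation was read from 6 libraries of polyadenylated RNA: 3 of oocytes arrested at metaphase of the second meiotic division (MII) and 3 of embryos from the earliest labelling window, 0-6hpi (hours post insemination). They were taken by column name from the 61 samples of the series and were fitted together with the other 24 libraries of the windows table. All genes enter the comparison: of 24551 genes in that table, 16234 had enough reads to be tested. Both groups were wild type (WT), came from females superovulated with PMSG and hCG, and were labelled for 6 h with 2 mM 4-thiouridine (4SU), a uridine analogue that enters newly made RNA. A sample held 10 embryos according to the design text. For 0-6hpi, capacitated sperm met the cumulus-oocyte complexes in medium that already held 4SU, and the presumptive zygotes were then moved to KSOM with 4SU. How the MII oocytes were handled during labelling and how the replicates were obtained are not given in the sources used here, so the p-values may reflect technical spread alone. The effect of fertilisation therefore cannot be told apart from that of medium or time in culture. Samples of the 0-6hpi group are called fertilised or zygotes below from this protocol only. The sources also do not say if reads without the T-to-C changes that mark labelled RNA were counted.

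The MII egg is transcriptionally quiet and lives on messenger RNA stored during growth. Its arrest is held by cytostatic factor, in which the kinase Mos acts through the MAP kinase pathway, and by Emi2 (Fbxo43), which restrains the anaphase-promoting complex. The sperm brings calcium oscillations that end the arrest. Cortical granules are then released, the second meiosis is completed, and pronuclei form and replicate their DNA. Stored messages are meanwhile translated, lengthened or shortened in their poly(A) tails, or destroyed, before the main activation of the embryonic genome.

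Total counts ran from 11171769 to 13301570 reads per library. Log levels correlated across genes at r = 0.984 to 0.988 among the MII libraries and at r = 0.993 among the 0-6hpi libraries. More genes had a read after fertilisation (15642 to 15845 per library) than in oocytes (14355 to 15140). Mitochondrially encoded transcripts held 1.06% to 1.22% of reads in MII libraries and 0.683% to 0.818% in 0-6hpi libraries. Of 15 oocyte markers, 14 were above 1 CPM in every one of the 6 libraries; CPM, the level used throughout, is a read count relative to the library total scaled with edgeR's TMM factor.

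Fertilisation was followed by higher levels of 2097 genes and lower levels of 1344 genes (edgeR quasi-likelihood test, Benjamini-Hochberg adjusted p below 0.05), which is 12.9% and 8.28% of the genes tested and 21.2% together. The called rises were steeper but began from lower levels, with a median of 7.17 CPM in MII oocytes against 130.3 CPM for the falls. The part of level in this contrast was not tested. The median log2 fold change was 1.31 among genes that rose and -0.70 among genes that fell, and 1421 rises but 295 falls reached 1 on the log2 scale. Genes that rose took 4.86% to 5.10% of the tested reads in MII libraries and 10.46% to 10.6% at 0-6hpi, whereas genes that fell took 31.3% to 32.1% and then 23.5% to 24.0%. The balance of directions depended on the scaling, the test and the libraries fitted. Rises made up 60.9% of calls, against 49.4% with DESeq2 size factors, 48.6% with DESeq2's own test, 49.1% when these 6 libraries were fitted alone and 78.3% with total count scaling, which moved the median log2 fold change of all genes from 0.03 to 0.19. The fit of 6 libraries called 2262 falls, and 3020 of its calls in either direction were shared with the fit of all windows. Its median log2 fold change was 0.006 over the 11464 genes it tested.

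**Figure D1:**
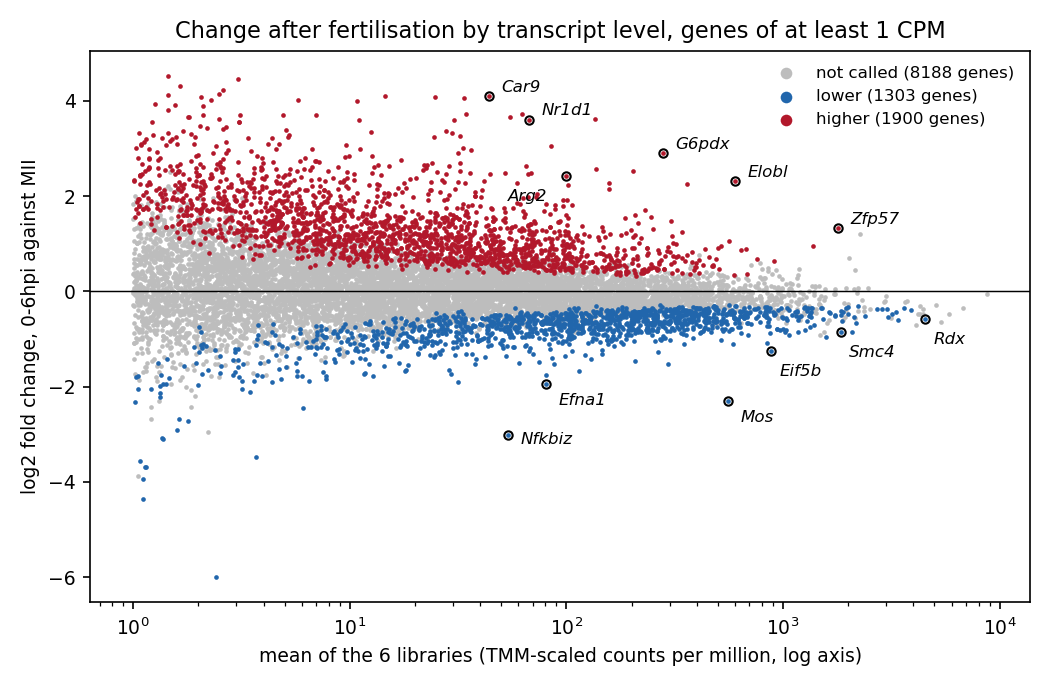
Log2 fold change at 0-6hpi against MII (vertical) by the mean level of the 6 libraries in TMM-scaled CPM (horizontal, log axis) for genes of at least 1 CPM; red points were called higher (1900 genes), blue lower (1303 genes) and grey not called (8188 genes). The steepest red points are at low and middle levels, while blue points are most frequent at the right, among highly counted genes.

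The steepest rises, among genes of at least 20 CPM whose libraries did not overlap between groups, were those of Car9, Derl3 and Samd10. Car9 encodes a carbonic anhydrase of the cell surface and is known for its induction by hypoxia. It was counted at 4.88, 4.51 and 5.08 CPM in the 3 MII libraries and at 67.3, 85.3 and 95.5 CPM in the 3 fertilised ones (a log2 change of 4.10, SE 0.39, adjusted p = 8.81e-09). Derl3, which helps to carry misfolded proteins out of the endoplasmic reticulum (ER), stood at 2.12, 3.74 and 2.43 CPM before and 40.5, 48.9 and 50.6 CPM after (a log2 change of 4.07, SE 0.26, adjusted p = 3.27e-14). For both genes the lowest fertilised library lay far above the highest oocyte library. Nr1d1, a circadian repressor of the nuclear receptor family, went from 8.49, 11.01 and 11.2 CPM to 117, 126 and 129.8 CPM (a log2 change of 3.60, SE 0.22, adjusted p = 6.64e-15). Slc30a3, a zinc transporter that loads vesicles, went from 18.5, 24.00 and 19.1 CPM to 198, 259 and 298 CPM (a log2 change of 3.61, SE 0.26, adjusted p = 1.03e-11). The 0-6hpi libraries spread more widely for Slc30a3 than for Nr1d1. Non-overlap of the groups was a condition for this set and for the gain, lower and loss sets below. It held for 6204 of the 16234 genes tested and for 3310 of the 3441 called. For called genes of the lists below, groups that lie apart are therefore no further support. The sets also took only ordinary symbols, which left out numbered gene models, clone and pseudogene names and mitochondrially encoded genes.

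The promoters of Car9, Derl3 and Nr1d1 are shown as examples picked by hand from the highest rises. Others of that set, such as Samd10, Slc30a3, Lsm10 and Scamp3, are not shown. How often the genes that rose hold the motifs below was not tested. Each window runs from 250 bases before to 50 after the start that RefSeq lists (build GRCm38.p6), written in the direction of the gene. Capitals mark ACGTG, the core bound by hypoxia-inducible and E-box factors, and CCAAT, on either strand; a CACGTG palindrome holds ACGTG once on each strand. For Car9 the window is chr4:43506776-43507075 on the plus strand, for Derl3 chr10:75893148-75893447 on the plus strand and for Nr1d1 chr11:98775328-98775627 on the minus strand.
Car9: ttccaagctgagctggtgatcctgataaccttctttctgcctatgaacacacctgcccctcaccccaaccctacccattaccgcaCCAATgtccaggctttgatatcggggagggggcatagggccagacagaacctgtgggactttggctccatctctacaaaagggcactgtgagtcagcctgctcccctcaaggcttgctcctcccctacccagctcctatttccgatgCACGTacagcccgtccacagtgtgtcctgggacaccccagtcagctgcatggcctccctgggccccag
Derl3: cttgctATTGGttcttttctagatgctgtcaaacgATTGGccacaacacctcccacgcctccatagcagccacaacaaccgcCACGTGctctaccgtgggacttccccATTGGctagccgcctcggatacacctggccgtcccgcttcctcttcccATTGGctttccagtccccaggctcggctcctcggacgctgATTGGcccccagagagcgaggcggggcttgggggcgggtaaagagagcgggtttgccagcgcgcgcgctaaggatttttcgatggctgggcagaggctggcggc
Nr1d1: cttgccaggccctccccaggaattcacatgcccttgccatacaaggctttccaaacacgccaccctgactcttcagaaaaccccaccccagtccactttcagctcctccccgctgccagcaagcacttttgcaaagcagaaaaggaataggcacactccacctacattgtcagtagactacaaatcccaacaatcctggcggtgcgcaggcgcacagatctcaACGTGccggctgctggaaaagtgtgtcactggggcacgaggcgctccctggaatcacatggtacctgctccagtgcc
Car9 has 1 ACGTG and 1 CCAAT match, Derl3 has 2 overlapping ACGTG matches and 5 CCAAT matches, and Nr1d1 has 1 ACGTG match and 0 CCAAT matches. Over the 27025 genes with a promoter in the table, 19.7% hold ACGTG and 37.9% hold CCAAT. A promoter was found for only 76% of genes of at least 1 CPM, too few for a comparison of called and uncalled genes, so none was made.

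The other genes in the upper set were of mixed roles. Lsm10, a component of the U7 particle that trims histone messages, went from 8.80 ± 1.67 to 116 ± 2.55 CPM (mean ± SD, n = 3 here and below). Scamp3, a membrane protein of secretory vesicles, went from 7.99 ± 0.709 to 101.5 ± 23.4 CPM. Yipf3 of the Golgi, Grina, Rhbdf1 (an inactive rhomboid protein), Cd7, Tbc1d7 of the tuberous sclerosis complex, the kinase Cdk5 and the ubiquitin ligase Rnf181 all rose, by 3.05 (Rnf181) to 3.60 (Yipf3) on the log2 scale.

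The largest gains in reads among called genes with an ordinary symbol, rather than in fold, went to genes already present in the egg. Zfp57, the zinc finger protein that guards imprinted methylation, gained most of them, from 972, 1015 and 1064 CPM to 2515, 2713 and 2440 CPM (a log2 change of 1.33, SE 0.19, adjusted p = 3.77e-06). Gyg, glycogenin, which primes glycogen synthesis, had 801, 987 and 1025 CPM before and 1701, 1871 and 1840 CPM after. G6pdx, the entry enzyme of the pentose phosphate pathway, had 74.6, 68.9 and 55.02 CPM in oocytes and 438, 522 and 521 CPM in zygotes (a log2 change of 2.90, SE 0.13, adjusted p = 4.09e-18). That the groups lay apart in these 3 genes was a condition of their choice. Elobl, an elongin B-like gene, rose from 201 ± 7.41 to 995 ± 8.96 CPM and the RNA-binding Rbpms2 from 125 ± 8.44 to 596 ± 56.6 CPM. Metabolic genes were Hmgcs1 of cholesterol synthesis (449.5 ± 40.3 to 825.5 ± 20.2 CPM) and Me1, malic enzyme (583 ± 16.6 to 933 ± 69.8 CPM). The endosomal GTPase Rab7, the spindle pole protein Aspm and Elmod2 completed the set. The Elmod2 call (adjusted p = 0.00992) was lost without any of 0-6hpi replicates 2 and 3 (adjusted p 0.0543 to 0.0581).

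At the other end, Nfkbiz, an inducible regulator of NF-kappa-B, dropped furthest among genes of at least 20 CPM, from 99.99, 96.4 and 90.7 CPM to 11.2, 11.85 and 12.3 CPM (a log2 change of -3.02, SE 0.36, adjusted p = 7.4e-08). Mos was counted at 1037, 904.5 and 841 CPM in MII oocytes and at 198.5, 163 and 199 CPM after insemination (a log2 change of -2.31, SE 0.38, adjusted p = 9.75e-05). No fertilised library came near an oocyte library for either gene. Of the others in the lower set, the ephrin Efna1 fell by 1.94 on the log2 scale, the proprotein convertase Furin by 1.91, the exchanger Slc24a5 by 1.76, the receptor phosphatase Ptprf by 1.57, the secreted Fstl1 by 1.65 and the ER protein Erp44 by 1.67. The tyrosine kinase Tnk2, the nucleosome-binding Hmgn5, the Mediator subunit Med11, the ubiquitin ligase Rnf130 and the antiproliferative gene Btg1 also fell. Lipe, hormone-sensitive lipase, fell from 27.5 ± 7.76 to 8.55 ± 1.695 CPM (adjusted p = 0.0272), a call lost with total counts (adjusted p = 0.0521) or without any of MII replicates 1 and 2 or any of 0-6hpi replicates 1, 2 and 3 (adjusted p 0.0552 to 0.109).

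Of called genes with an ordinary symbol, the 10 largest losses in reads were each below 1 on the log2 scale. Mitochondrially encoded genes were left out of this ranking, although mt-Cytb (4066 to 2696 CPM) and mt-Nd1 (2697 to 1484 CPM) lost more than Pttg1. Rdx, radixin, which ties actin to the membrane, stood at 5597, 5638 and 5059 CPM and then at 3757, 3597 and 3522 CPM (a log2 change of -0.58, SE 0.14, adjusted p = 0.00159). Pttg1, securin, the inhibitor of separase, went from 3513, 3744 and 3594 CPM to 2461, 2688 and 2339 CPM (a log2 change of -0.54, SE 0.11, adjusted p = 0.000281). Smc4, a condensin subunit, changed from 2412, 2515 and 2214 CPM to 1245, 1360 and 1355 CPM (a log2 change of -0.85, SE 0.13, adjusted p = 3.96e-06). Every fertilised library of these 3 genes was below every oocyte library, which was a condition of their choice. The peroxidase Prdx1, the chaperone Hsp90aa1, Ypel5 and the histone H3.3 gene H3f3b fell too. The remaining calls were less firm. That of Mphosph6 (adjusted p = 0.00449) was lost with total counts (adjusted p = 0.0722). Rbbp7, a histone chaperone (adjusted p = 0.032), was no longer called with total counts (adjusted p = 0.18) or without any of MII replicates 2 and 3 or any of 0-6hpi replicates 1, 2 and 3 (adjusted p 0.0551 to 0.119). Ube2d3, a ubiquitin-conjugating enzyme (adjusted p = 0.0117), dropped out without the low-count filter (adjusted p = 0.0773), with total counts (adjusted p = 0.136) or without MII replicate 3 or 0-6hpi replicate 3 (adjusted p 0.0546 to 0.0789).

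**Figure D2:**
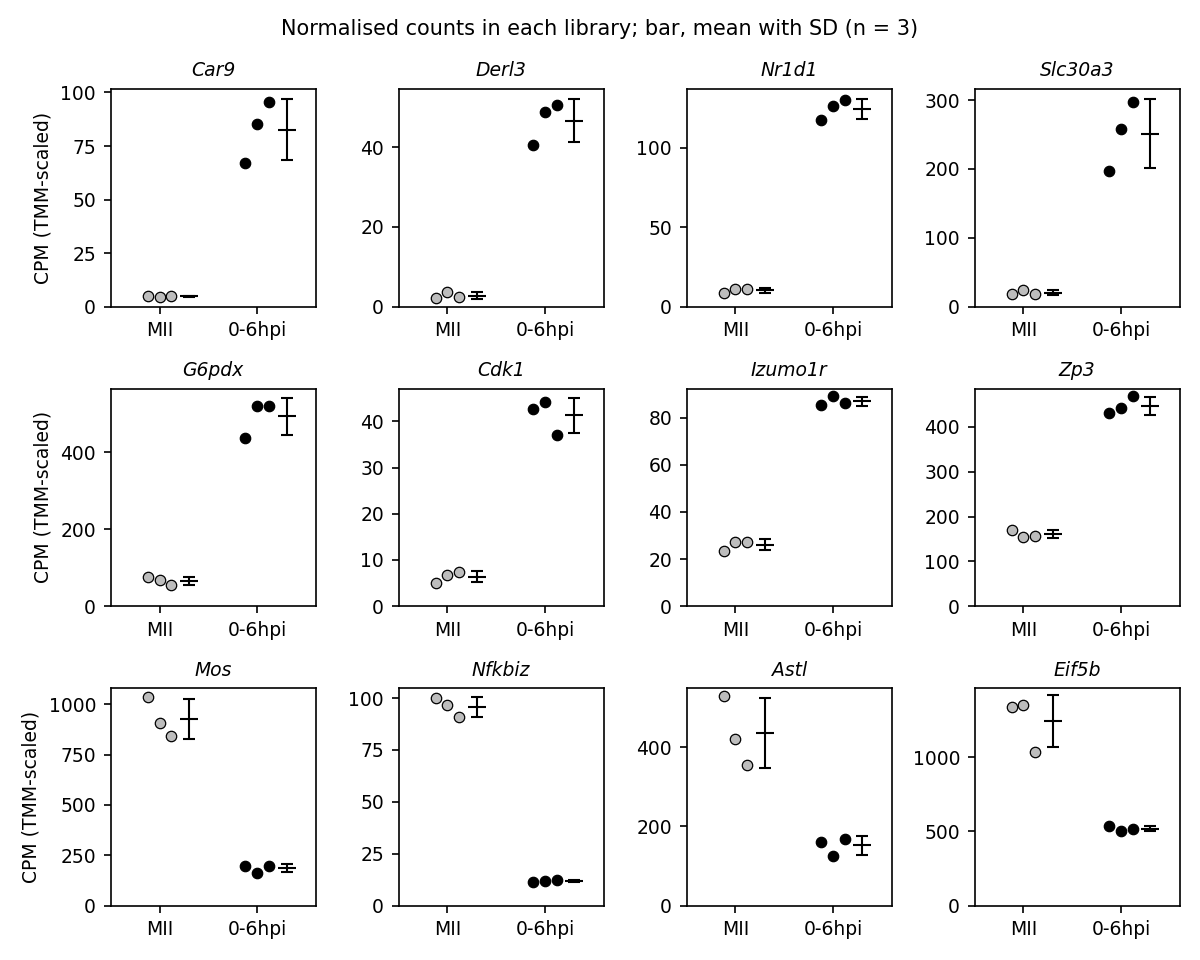
TMM-scaled CPM (vertical, from 0) of 12 genes in the 3 MII and 3 0-6hpi libraries (points), with the mean and SD of each group (n = 3). In all 12 the groups are apart: Car9, Derl3, Nr1d1, Slc30a3, G6pdx, Cdk1, Izumo1r and Zp3 are higher at 0-6hpi, and Mos, Nfkbiz, Astl and Eif5b lower.

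Among genes that hold and release the meiotic arrest, 10 of 42 genes tested rose and 7 fell, with a median log2 fold change of -0.08. Beside this and every list below stand all genes tested, of which 12.9% rose and 8.28% fell. Of all genes of at least 1 CPM, 16.7% rose and 11.4% fell. For the arrest list the counts were 12 rises and 4 falls with total count scaling, 7 rises and 8 falls with DESeq2 size factors, and 8 rises and 4 falls without 0-6hpi replicate 2. Its median was 0.07 with total count scaling. Mos, at the start of the cytostatic pathway, had the steepest fall of the list. Downstream of it, Mapk3 (ERK1) rose from 28.45, 25.2 and 27.4 CPM to 98.8, 105 and 116 CPM (a log2 change of 1.98, SE 0.19, adjusted p = 6.68e-10). The kinase between it and Mos, Map2k1, measured 605, 591 and 638 CPM and then 509, 645.5 and 547 CPM, with overlapping groups (adjusted p = 0.563). Cdk1, the kinase of maturation-promoting factor, rose from 5.095, 6.715 and 7.403 CPM to 42.7, 44.3 and 37.02 CPM (a log2 change of 2.69, SE 0.18, adjusted p = 4.86e-14), the steepest rise of the list. Its partner cyclin B1 (Ccnb1) was at 3520, 3781 and 4557 CPM and then at 3063, 3729 and 3312 CPM, where the groups overlap (adjusted p = 0.232, and 0.0307 with the 6 libraries alone). Fbxo43 also overlapped, with 427, 389.7 and 372 CPM before and 378, 385 and 376.5 CPM after (adjusted p = 0.944).

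Anaphase and spindle checkpoint genes moved in both directions. The checkpoint genes Bub1b (2337 ± 112 to 1675 ± 89.01 CPM) and Mad2l1 (1196 ± 135 to 811 ± 40.9 CPM) fell along with securin. The chromosomal passenger genes Birc5 (351 ± 39.97 to 681 ± 55.7 CPM) and Aurkb (5.72 ± 1.62 to 16.98 ± 1.122 CPM) rose, as did the mitotic kinase Plk1 (240.5 ± 10.75 to 399 ± 34.4 CPM) and the phosphatase Cdc25b (7.90 ± 2.09 to 18.4 ± 1.52 CPM). Aurkc, the germline counterpart of Aurkb, fell from 901.5 ± 52.4 to 671 ± 80.2 CPM (adjusted p = 0.0389), but not with total counts (adjusted p = 0.19) or without any of MII replicates 2 and 3 or any of 0-6hpi replicates 1 and 2 (adjusted p 0.0723 to 0.156). The other 5 calls of the list were each lost when at least 1 library was left out. The calcium channel Itpr1, through which the sperm signal acts, had 140.3, 122 and 92.15 CPM and then 98.6, 93.35 and 103.5 CPM, overlapping, with an adjusted p of 0.455.

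Of egg coat and egg surface genes, 4 of 23 genes tested rose and 3 fell, with a median log2 fold change of 0.14. There were 5 rises and 2 falls with total count scaling, 6 rises and 6 falls with the 6 libraries alone, and 4 rises and 5 falls without the low-count filter. The rises were those of Izumo1r, Cd9, Zp3 and Zp1. Izumo1r (Juno), the egg receptor for sperm Izumo1, went from 23.25, 27.4 and 27.4 CPM to 85.5, 89.02 and 86.1 CPM (a log2 change of 1.74, SE 0.28, adjusted p = 1.13e-05). Cd9, the tetraspanin needed for membrane fusion, went from 12.95, 18.2 and 11.6 CPM to 36.7, 41.5 and 35.7 CPM (a log2 change of 1.41, SE 0.16, adjusted p = 3.54e-08). The coat protein Zp3 stood at 171, 155 and 156 CPM in oocytes and at 430.3, 442 and 469.8 CPM in fertilised eggs (a log2 change of 1.48, SE 0.15, adjusted p = 3.02e-09). In these 3 genes no library of one group reached into the other, as in 3310 of all 3441 genes called. Zp1 rose from 109 ± 7.86 to 248 ± 5.45 CPM, while Zp2 had 104, 124 and 131 CPM and then 161, 166 and 155 CPM, apart but not called (adjusted p = 0.118, and 0.00992 with the 6 libraries alone). Astl, the cortical granule protease ovastacin that cleaves Zp2 after fertilisation, fell from 529.6, 421 and 355 CPM to 161, 126 and 169 CPM (a log2 change of -1.52, SE 0.32, adjusted p = 0.00102). Adam9 fell from 29.7 ± 4.225 to 14.3 ± 4.13 CPM. Itga6, an integrin, was called lower (adjusted p = 0.0317), but its libraries overlapped and the call was lost with total counts (adjusted p = 0.226) or without any of MII replicates 1 and 2 or any of 0-6hpi replicates 1 and 2 (adjusted p 0.102 to 0.161).

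Of oocyte factors, 7 of 36 genes tested rose and 2 fell, with a median log2 fold change of 0.10. Other settings gave 13 rises and 12 falls with the 6 libraries alone, and 12 rises and 9 falls without the low-count filter. Its median was -0.01 with DESeq2 size factors or with DESeq2. Of the subcortical maternal complex, Tle6 rose from 203 ± 25.02 to 484 ± 24.6 CPM, Ooep from 276 ± 34.9 to 426 ± 25.4 CPM and Khdc3 from 17.2 ± 1.69 to 37.7 ± 6.12 CPM, while Nlrp5 (log2 fold change 0.32, adjusted p = 0.391) and Padi6 (0.22, adjusted p = 0.3) were not called. Lhx8, an oocyte homeobox gene, rose from 55.6 ± 7.004 to 147 ± 10.6 CPM. Dppa3 (Stella), which protects the maternal genome from demethylation, fell from 2517 ± 131 to 1726 ± 111 CPM. Bmp15, an oocyte growth factor, had 1334, 1362 and 1420 CPM and then 2945, 3403 and 3167 CPM (adjusted p = 0.262 over all windows and 2.62e-08 over the 6 libraries). The related growth factor Gdf9 had 5242, 4975 and 5055 CPM and then 3108, 3126 and 3116 CPM (adjusted p = 0.211 and 9.56e-07). Both genes separated completely, in opposite directions, without a call in the fit of all windows. Bmp15 gained more CPM than any called gene of the gain set, and Gdf9 lost more than any of the loss set.

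Of the machinery that shortens tails, decaps and destroys messages, 6 of 45 genes tested rose and 7 fell, with a median log2 fold change of -0.13. The counts were 9 rises and 5 falls with total count scaling, 6 rises and 13 falls with DESeq2 size factors or with DESeq2, and 7 rises and 14 falls with the 6 libraries alone. Its median was 0.04 with total count scaling. Within the CCR4-NOT deadenylase the scaffold Cnot1 rose from 92.6 ± 12.7 to 157 ± 11.5 CPM, while the catalytic subunits Cnot6 (87.1 ± 15.5 to 46.3 ± 5.785 CPM) and Cnot7 (1465 ± 111 to 1105 ± 118 CPM) fell. The Cnot7 call (adjusted p = 0.0175) was lost with total counts (adjusted p = 0.155) or without MII replicate 3 or 0-6hpi replicate 1 (adjusted p 0.0578 to 0.13). Pan3, the partner of the Pan2 deadenylase, fell from 188.5, 235 and 212 CPM to 93.5, 88.5 and 113 CPM (a log2 change of -1.10, SE 0.19, adjusted p = 4.74e-05), and Pan2 was not called (adjusted p = 0.441). Parn, another deadenylase, rose from 43.8 ± 1.79 to 80.01 ± 1.565 CPM. Subunits of the Lsm ring divided likewise: Lsm1 (208 ± 24.9 to 129 ± 1.10 CPM) and Lsm5 fell, and Lsm6 (11.3 ± 2.275 to 45.95 ± 1.56 CPM) and Lsm4 rose. Btg4, the egg adaptor of CCR4-NOT, had 3487, 3866 and 3932 CPM and then 2446, 2661 and 2559 CPM; its groups did not overlap, and its adjusted p was 0.616 over all windows and 8.6e-06 over the 6 libraries.

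Of genes that lengthen, bind or mask tails, 8 of 36 genes tested rose and 5 fell, with a median log2 fold change of -0.03. There were 9 rises and 3 falls with total count scaling, 6 rises and 9 falls with DESeq2 size factors, 7 rises and 12 falls with DESeq2, 7 rises and 10 falls with the 6 libraries alone, 5 rises and 6 falls without MII replicate 3, 6 rises and 3 falls without MII replicate 2 or 0-6hpi replicates 1, 2 or 3, and 8 rises and 3 falls without MII replicate 1. Its median was 0.14 with total count scaling. Poly(A)-binding proteins split. The oocyte form Pabpc1l rose from 10.4, 12.4 and 11.6 CPM to 42.1, 39.6 and 47.8 CPM (a log2 change of 1.91, SE 0.28, adjusted p = 2.38e-06), whereas the nuclear Pabpn1 fell from 102, 114 and 65.96 CPM to 40.7, 40.6 and 42.9 CPM (a log2 change of -1.18, SE 0.18, adjusted p = 4.95e-06). Neither gene had overlapping groups. Pabpc1 fell as well (10.04 ± 4.17 to 5.10 ± 1.03 CPM, adjusted p = 0.00236). Pabpc4 was not called (adjusted p = 0.41, and 0.0433 with total counts). The mRNA-masking protein Ybx2 (10.7 ± 0.145 to 29.3 ± 1.43 CPM) and the translational repressor Eif4enif1 (382 ± 57.4 to 555 ± 51.1 CPM) rose. So did Zar1l (13.2 ± 1.64 to 29.55 ± 2.95 CPM), though not without 0-6hpi replicate 1 (adjusted p = 0.0567), and Eif4e1b (80.4 ± 17.1 to 133 ± 8.56 CPM), though not without MII replicate 3 (adjusted p = 0.0715). Lsm14b fell from 330.1 ± 25.8 to 209 ± 40.1 CPM, a call lost without 0-6hpi replicate 3 (adjusted p = 0.0732). Cpeb1, which directs cytoplasmic tail extension, was called higher (326 ± 10.1 to 465.5 ± 41.7 CPM, adjusted p = 0.0224) but not with DESeq2 (adjusted p = 0.0531), with DESeq2 size factors (adjusted p = 0.0753) or without any of MII replicates 2 and 3 or any of 0-6hpi replicates 2 and 3 (adjusted p 0.0731 to 0.108).

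Nuclear genes of mitochondrial energy supply were called higher at larger shares than the 16.7% of all genes of at least 1 CPM, of which 11.4% fell, and the mitochondrially encoded genes tested all fell. Larger shares of rises were not particular to them, with 31.25% for the proteasome, 30% for DNA replication and 28.6% and 31.25% for large- and small-subunit ribosomal proteins. Falls exceeded 11.4% in complex IV (25%), the mitochondrial ribosome (12.8%) and the citric acid cycle (12.5%). For respiratory complex I, 14 of 36 genes tested rose and 1 fell, with a median log2 fold change of 0.41. Other settings gave 12 rises and 2 falls with the 6 libraries alone. For complex III, 4 of 9 genes tested rose and 0 fell, with a median log2 fold change of 0.56. The counts were 2 rises and 0 falls without 0-6hpi replicate 1. For complex IV, 4 of 12 genes tested rose and 3 fell, with a median log2 fold change of 0.12. There were 4 rises and 0 falls with total count scaling, and 4 rises and 1 fall without MII replicate 1. For complex V, the ATP synthase, 9 of 15 genes tested rose and 0 fell, with a median log2 fold change of 0.76. Other settings gave 9 rises and 1 fall with DESeq2 size factors or with DESeq2, and 8 rises and 1 fall with the 6 libraries alone. The ATP synthase genes Atp5g1 (8.82 ± 1.48 to 38.6 ± 3.88 CPM) and Atp5g2 (4.21 ± 0.107 to 26.1 ± 2.32 CPM) encode the same ring subunit, so reads may be shared between them. Cox6a1 of complex IV rose from 19.85, 13.3 and 14.1 CPM to 64.3, 47.4 and 51.8 CPM. Of the mitochondrial ribosome, 28 of 78 genes tested rose and 10 fell, with a median log2 fold change of 0.38. The counts were 35 rises and 6 falls with total count scaling, 24 rises and 16 falls with DESeq2 size factors, 27 rises and 16 falls with DESeq2, and 23 rises and 6 falls without MII replicate 3. Of the citric acid cycle, 10 of 24 genes tested rose and 3 fell, with a median log2 fold change of 0.33. There were 12 rises and 1 fall with total count scaling, 10 rises and 1 fall without the low-count filter, 8 rises and 1 fall without MII replicate 3, 9 rises and 1 fall without 0-6hpi replicate 1, and 10 rises and 1 fall without MII replicate 2. Sdhd, a membrane anchor of succinate dehydrogenase, changed from 7.43, 7.485 and 8.29 CPM to 27.35, 27.6 and 25.9 CPM (a log2 change of 1.80, SE 0.27, adjusted p = 3.49e-06), with the groups apart.

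Of glycolysis, 7 of 18 genes tested rose and 0 fell, with a median log2 fold change of 0.79. Other settings gave 5 rises and 1 fall with DESeq2 size factors or with DESeq2, and 6 rises and 1 fall without MII replicate 3. Among the rises were Tpi1 (6.44 ± 3.75 to 38.6 ± 9.82 CPM), Aldoa (6.01 ± 1.515 to 24.1 ± 1.26 CPM) and Pkm (37.3 ± 2.57 to 90.8 ± 10.1 CPM), a step of the pathway each. Of mitochondrially encoded genes, 0 of 10 genes tested rose and 10 fell, with a median log2 fold change of -0.89; under total count scaling 9 fell and the median was -0.72. The complex I gene mt-Nd1 was at 2434, 2581 and 3075 CPM in oocytes and 1378, 1834 and 1240 CPM in zygotes, and mt-Nd6, the gene on the light strand, at 468, 513 and 445 CPM and then 209, 230.4 and 227 CPM (a log2 change of -1.10, SE 0.18, adjusted p = 2.81e-05). Both sets of libraries lay apart. The list summed to 12732 to 15320 CPM in MII libraries and 7516 to 9411 CPM in fertilised ones. Leaving these genes out changed the count of all calls from 3441 to 3438.

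**Figure D3:**
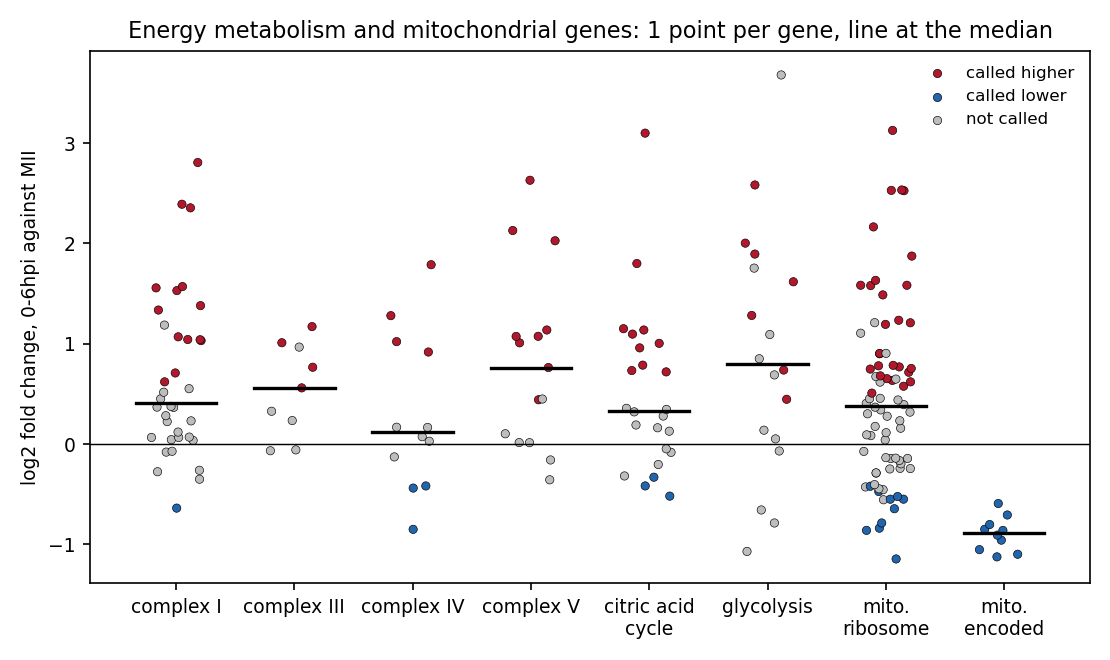
Log2 fold change at 0-6hpi against MII (vertical) of each tested gene (points) in 8 groups of energy and mitochondrial genes; red was called higher, blue lower, grey not called, and lines are medians. The mitochondrially encoded group lies wholly below 0, while complexes I, III and V and glycolysis have medians of 0.41, 0.56, 0.76 and 0.79.

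Protein synthesis genes split in both directions. Of large-subunit ribosomal proteins, 14 of 49 genes tested rose and 8 fell, with a median log2 fold change of 0.19. The counts were 19 rises and 4 falls with total count scaling, 14 rises and 5 falls without the low-count filter, 10 rises and 5 falls without MII replicate 1, 13 rises and 5 falls without 0-6hpi replicate 2, and 20 rises and 3 falls without MII replicate 2. Of small-subunit ones, 10 of 32 genes tested rose and 5 fell, with a median log2 fold change of 0.07. There were 8 rises and 7 falls with DESeq2 size factors, 8 rises and 9 falls with DESeq2, and 8 rises and 8 falls without the low-count filter. Its median was -0.04 with DESeq2 size factors or with DESeq2. Rps15a fell from 519, 531 and 496 CPM to 325, 300.3 and 303 CPM (a log2 change of -0.73, SE 0.10, adjusted p = 1.43e-06). Its groups were apart, but ribosomal proteins have many processed copies in the genome with which reads may be shared. Of initiation and elongation factors, 7 of 38 genes tested rose and 8 fell, with a median log2 fold change of 0.18. Other settings gave 17 rises and 3 falls with total count scaling, 5 rises and 12 falls with DESeq2 size factors, 5 rises and 13 falls with DESeq2, 6 rises and 13 falls with the 6 libraries alone, 4 rises and 6 falls without MII replicate 1, 4 rises and 7 falls without 0-6hpi replicate 2, 5 rises and 5 falls without 0-6hpi replicate 1, and 12 rises and 5 falls without MII replicate 2. The subunit-joining factor Eif5b fell from 1338, 1349 and 1037 CPM to 538, 501.5 and 513.5 CPM (a log2 change of -1.26, SE 0.14, adjusted p = 8.88e-09), and the elongation factor Eef1a1, which also has genomic copies, rose from 57.8 ± 13.6 to 139 ± 10.1 CPM. Of ribosome assembly factors, 11 of 49 genes tested rose and 8 fell, with a median log2 fold change of 0.24. The counts were 16 rises and 3 falls with total count scaling, 8 rises and 9 falls with DESeq2 size factors, and 7 rises and 7 falls without MII replicate 3. Dkc1, a pseudouridine synthase, fell from 531.5 ± 64.9 to 341 ± 11.1 CPM.

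Of splicing genes, 8 of 38 genes tested rose and 11 fell, with a median log2 fold change of -0.01. There were 6 rises and 14 falls with DESeq2 size factors, 2 rises and 13 falls without MII replicate 3, 4 rises and 11 falls without 0-6hpi replicate 1, and 5 rises and 11 falls without 0-6hpi replicate 2. Its median was 0.15 with total count scaling. Snrpb2, of the U2 particle, went from 817, 896 and 774 CPM to 438, 458 and 465 CPM (a log2 change of -0.87, SE 0.11, adjusted p = 9.37e-08), with no overlap, and Snrpe, Snrpd1 and Sf3b5 fell by 0.80, 0.76 and 0.95 on the log2 scale. Of the proteasome, 10 of 32 genes tested rose and 4 fell, with a median log2 fold change of -0.03. Its median was 0.13 with total count scaling. Psma5, a core subunit, rose from 31.7 ± 4.06 to 97.3 ± 18.4 CPM and Psmc2, an ATPase of the cap, from 24.1 ± 6.86 to 69.25 ± 5.96 CPM. Of autophagy and lysosome genes, 10 of 41 genes tested rose and 3 fell, with a median log2 fold change of 0.21. Other settings gave 13 rises and 1 fall with total count scaling, 10 rises and 5 falls with DESeq2, 11 rises and 5 falls with the 6 libraries alone, 9 rises and 0 falls without 0-6hpi replicate 3, 10 rises and 1 fall without 0-6hpi replicate 1, and 11 rises and 1 fall without MII replicate 3. Among the rises were the cargo receptor Sqstm1 (15.4 ± 5.12 to 41.85 ± 5.55 CPM) and the protease Ctsb (14.3 ± 2.57 to 37.2 ± 4.18 CPM).

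**Figure D4:**
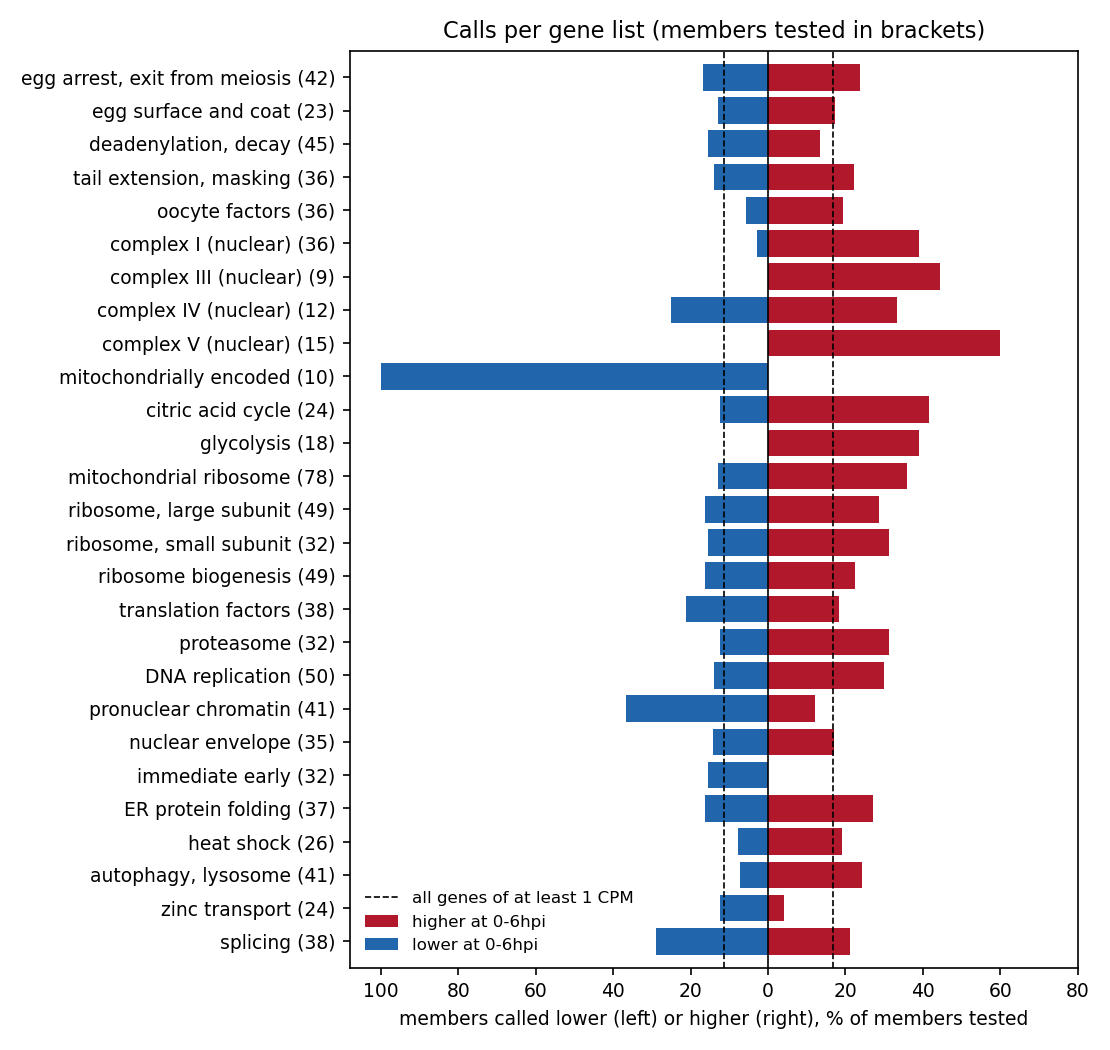
Percent of tested members called higher (right) or lower (left) at 0-6hpi for 27 gene lists; dashed lines mark all genes of at least 1 CPM (16.7% higher, 11.4% lower). Complex V has the longest bar to the right and the mitochondrially encoded genes the longest to the left.

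Of DNA replication genes, 15 of 50 genes tested rose and 7 fell, with a median log2 fold change of 0.04. The counts were 16 rises and 11 falls with the 6 libraries alone. Its median was -0.06 with DESeq2 size factors or with DESeq2. Of the 6 subunits of the MCM helicase, 2 rose, Mcm6 from 85.98, 73.6 and 72.04 CPM to 155, 166.5 and 155 CPM (a log2 change of 1.04, SE 0.15, adjusted p = 1.69e-06) and Mcm5 from 10.6 ± 2.32 to 27.05 ± 2.255 CPM. Cdk2, a kinase of S phase, rose from 1.121 ± 0.5935 to 5.60 ± 0.849 CPM. Geminin (Gmnn), the inhibitor of origin licensing, fell from 581.5, 658.5 and 678 CPM to 384.5, 438 and 409 CPM (a log2 change of -0.64, SE 0.11, adjusted p = 2.36e-05). None of the fertilised libraries of these 4 genes overlapped with the oocyte libraries.

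Of chromatin genes of the forming pronuclei, 5 of 41 genes tested rose and 15 fell, with a median log2 fold change of -0.20. There were 7 rises and 8 falls with total count scaling, and 6 rises and 8 falls without MII replicate 2. Trim28, the co-repressor that Zfp57 recruits, fell from 231.5, 246 and 206 CPM to 119.6, 109.8 and 143 CPM (a log2 change of -0.88, SE 0.14, adjusted p = 1.25e-05), while Zfp57 rose. The histone H3.3 genes parted, with H3f3a rising from 212, 194 and 234 CPM to 436, 422 and 425 CPM and H3f3b falling from 3499, 3887 and 4053 CPM to 2565, 3082 and 2816 CPM. The groups of all these genes were apart. The histone methyltransferase Suv39h1 rose from 6.56 ± 1.11 to 34.1 ± 3.40 CPM and Dnmt3l, the cofactor of de novo methylation, from 17.8 ± 2.76 to 52.8 ± 3.535 CPM. Of nuclear envelope genes, 6 of 35 genes tested rose and 5 fell, with a median log2 fold change of 0.03. Other settings gave 9 rises and 3 falls with total count scaling, 4 rises and 7 falls with DESeq2 size factors, and 5 rises and 8 falls with DESeq2. Its median was -0.07 with DESeq2 size factors or with DESeq2 and -0.01 with the 6 libraries alone. Lbr, the lamin B receptor, fell from 427, 333 and 362 CPM to 159.8, 146 and 156 CPM (a log2 change of -1.28, SE 0.18, adjusted p = 9.84e-07). Tpr of the nuclear basket fell from 568 ± 14.7 to 329 ± 12.3 CPM, and Nup214 of the cytoplasmic filaments rose from 188 ± 10.7 to 342 ± 10.5 CPM.

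Stress genes did not move as blocks. Of protein folding in the ER, 10 of 37 genes tested rose and 6 fell, with a median log2 fold change of -0.10. The counts were 11 rises and 3 falls with total count scaling, 7 rises and 7 falls with DESeq2 size factors, 9 rises and 11 falls with DESeq2, 10 rises and 11 falls with the 6 libraries alone, and 9 rises and 2 falls without MII replicate 1. Its median was 0.06 with total count scaling. Chac1, a target of the integrated stress response, was counted at 0.212, 0.220 and 0.3315 CPM in oocytes and 4.71, 3.81 and 6.35 CPM after fertilisation (adjusted p = 1.15e-05), with so few oocyte reads that no fold is given. Pdia4 rose from 48.1 ± 10.6 to 91.15 ± 3.07 CPM, whereas the chaperone Canx fell from 307 ± 33.3 to 189 ± 24.7 CPM. Of hypoxia targets, 3 of 25 genes tested rose and 1 fell, with a median log2 fold change of 0.24. There were 3 rises and 0 falls with the 6 libraries alone, and 2 rises and 0 falls without MII replicate 2. Beside Car9, Bhlhe40 rose from 9.79 ± 2.01 to 22.8 ± 1.18 CPM, though not without MII replicate 2 or 0-6hpi replicate 1 (adjusted p 0.0671 to 0.0884). Epas1, with 0.637, 3.52 and 0.1105 CPM in oocytes and 0.0906, 0.103 and 0.167 CPM after, was called lower but not without MII replicate 2 (adjusted p = 0.313). Of heat shock genes, 5 of 26 genes tested rose and 2 fell, with a median log2 fold change of 0.06. Other settings gave 6 rises and 1 fall with total count scaling, 3 rises and 2 falls with DESeq2, 4 rises and 1 fall without the low-count filter, and 3 rises and 2 falls without MII replicates 2 or 3. Its median was -0.05 with DESeq2 size factors or with DESeq2. Of p53 targets, 1 of 22 genes tested rose and 1 fell, with a median log2 fold change of -0.08. The counts were 2 rises and 1 fall with total count scaling, 1 rise and 3 falls with DESeq2 size factors or with the 6 libraries alone, 1 rise and 4 falls with DESeq2, 1 rise and 2 falls without the low-count filter, 0 rises and 1 fall without MII replicates 2 or 3 or 0-6hpi replicate 1, and 1 rise and 2 falls without 0-6hpi replicate 2. Its median was 0.04 with total count scaling. Gadd45a, a growth arrest gene, fell from 10.4, 9.91 and 10.3 CPM to 1.90, 2.27 and 4.01 CPM (a log2 change of -1.89, SE 0.36, adjusted p = 0.000129).

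Of immediate early genes, the rapid responders of somatic cells, 0 of 32 genes tested rose and 5 fell, with a median log2 fold change of -0.43. There were 2 rises and 4 falls with total count scaling, 0 rises and 8 falls with DESeq2, 0 rises and 2 falls without 0-6hpi replicate 2, 0 rises and 3 falls without 0-6hpi replicates 1 or 3, and 3 rises and 4 falls without MII replicate 3. Only 19 of them reached 1 CPM, and of the falls Ier2 and Csrnp1 had means under 2 CPM in both groups. The call of Ier2 was lost without MII replicate 3 or any of 0-6hpi replicates 1 and 2 (adjusted p 0.0727 to 0.776). That of Csrnp1 was lost without MII replicate 2 or any of 0-6hpi replicates 2 and 3 (adjusted p 0.0779 to 0.192). Nfkbiz is one of the falls; Klf4 fell from 14.01, 10.35 and 8.51 CPM to 4.53, 4.12 and 5.77 CPM (a log2 change of -1.18, SE 0.27, adjusted p = 0.0012), with the groups apart. Of zinc transporters and zinc-binding genes, listed because the activated egg expels zinc, 1 of 24 genes tested rose and 3 fell, with a median log2 fold change of -0.22. Other settings gave 2 rises and 1 fall with total count scaling, 2 rises and 4 falls with the 6 libraries alone, and 1 rise and 1 fall without MII replicate 1 or 0-6hpi replicate 1. The rise was that of Slc30a3, and Slc30a4 fell from 67.6 ± 8.54 to 33.4 ± 5.97 CPM. The falls of Slc30a5 (adjusted p = 0.0425) and Slc39a9 (adjusted p = 0.0172) were less firm, the former lost without the low-count filter (adjusted p = 0.0656), with total counts (adjusted p = 0.151) or without any of MII replicates 1 and 3 or any of 0-6hpi replicates 1 and 2 (adjusted p 0.0593 to 0.163). Slc39a9 was lost with total counts (adjusted p = 0.062) or without MII replicate 1 or any of 0-6hpi replicates 1 and 2 (adjusted p 0.0837 to 0.14).

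Genes of later stages were mostly uncalled, but so were the genes tested as a whole, of which 21.2% were called. Of the 2-cell programme, 3 of 29 genes tested rose and 1 fell, with a median log2 fold change of 0.59. Its median was 0.24 with the 6 libraries alone. Arg2, mitochondrial arginase, rose from 29.3, 25.5 and 39.45 CPM to 153, 178 and 170.1 CPM (a log2 change of 2.41, SE 0.21, adjusted p = 9.7e-11). Tcstv3 rose from 12.6 ± 3.41 to 29.2 ± 5.08 CPM, and its near copy Tcstv1, with which it may share reads, was called higher (adjusted p = 0.0287) but not with DESeq2 size factors (adjusted p = 0.0618) or without any of MII replicates 1, 2 and 3 or any of 0-6hpi replicates 1, 2 and 3 (adjusted p 0.0616 to 0.137). Zscan4d had 1.38, 0.881 and 0.5525 CPM and then 4.17, 4.33 and 2.67 CPM, apart but not called (adjusted p = 0.0941). Of pluripotency genes, 3 of 19 genes tested rose and 3 fell, with a median log2 fold change of 0.03. The counts were 4 rises and 2 falls with total count scaling, and 2 rises and 4 falls with DESeq2 size factors. Its median was -0.06 with DESeq2 size factors or with DESeq2 and 0.16 with the 6 libraries alone. Sall4 fell from 743.5, 704 and 623 CPM to 363, 304 and 351 CPM (a log2 change of -1.02, SE 0.15, adjusted p = 2.42e-06). Of trophectoderm genes, 0 of 20 genes tested rose and 3 fell, with a median log2 fold change of -0.71. There were 1 rise and 1 fall with total count scaling, 0 rises and 6 falls with DESeq2, 0 rises and 5 falls without the low-count filter, and 0 rises and 1 fall without 0-6hpi replicate 1. Its median was -0.26 with the 6 libraries alone. Only 9 of these and 9 of the 2-cell genes reached a mean of 1 CPM, and over those the medians were -0.23 and 0.28. Of replication-dependent histones, most of whose messages end without a poly(A) tail, 4 of 34 genes tested rose and 0 fell, with a median log2 fold change of 0.30. Other settings gave 2 rises and 0 falls with the 6 libraries alone or without the low-count filter, 1 rise and 0 falls without MII replicate 1 or 0-6hpi replicates 1 or 2, and 2 rises and 0 falls without MII replicate 3. Its median was 0.84 with the 6 libraries alone. Their sum was 87.3 to 109 CPM in MII and 99.2 to 110.0 CPM in fertilised libraries. The highest mean of the 4 that rose was 3.35 CPM (Hist1h2bk), and histone genes are near copies of each other that may share reads.

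The dish also held cumulus cells and sperm, so their markers were read. Of 23 cumulus and granulosa markers in the table, 7 had no read in the 6 libraries, Amh, Lhcgr and Cd44 among them, and 21 stayed under 5 CPM. The list summed to 1077 to 1219 CPM in MII and 1090 to 1294 CPM in fertilised libraries. Nearly all of that sum was Serpine2 (956, 927 and 1064 CPM, then 997.5, 1094 and 1183 CPM, adjusted p = 0.465) and Cyp19a1 (134, 143 and 151.5 CPM, then 86.6, 103.5 and 105 CPM, adjusted p = 0.0727, and 0.000794 with the 6 libraries alone). Of 17 sperm markers, all stayed under 5 CPM and 5 had no read, with sums of 4.20 to 8.81 CPM and 10.03 to 11.4 CPM. Prm2, a protamine of sperm chromatin, had 1.59, 2.97 and 0.994 CPM and then 4.71, 3.71 and 4.18 CPM, apart but not called (adjusted p = 0.206). In pooled embryos a change in RNA per embryo and a change in its share of the library cannot be told apart.

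Level and length moved with the calls. When the 11391 genes of at least 1 CPM were put in 5 equal bins by level per kilobase, 2.99% of the lowest bin and 26.7% of the highest fell, whereas 13.1% of the lowest, 20.2% of the middle and 12.0% of the highest rose. By gene length, 25.2% of the shortest bin (up to 1841 bases) and 7.28% of the longest (from 5241 bases) rose, and 11.1% and 13.6% fell. The median length was 2624 bases for genes of at least 1 CPM that rose, 3565 for those that fell and 3460 for those not called. The part of length in the results above was not tested.

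Over all 10 groups, the genes followed different courses after the step. Car9 went on to means of 162 CPM at 6-12hpi and 172 CPM at 12-18hpi, and was at 4.39 CPM by 30-36hpi. Nr1d1 and Slc30a3 likewise had their highest mean at 12-18hpi, whereas Arg2 peaked at 6-12hpi (444 CPM) and Zp3 at 0-6hpi itself. Mos went through 40.7 CPM at 6-12hpi to 13.98 CPM at 12-18hpi. Cdk1 had its highest mean at 48-54hpi, 755 CPM. As a description, among the 1900 genes of at least 1 CPM that rose, 93 (4.9%) had their highest mean of the 10 groups at 0-6hpi. It lay at 6-12hpi for 202 (10.6%) and at 12-18hpi for 425 (22.4%). Late peaks were common too, with 332 at 48-54hpi, 249 at 70-76hpi and 331 at 90-96hpi. Of the 8188 genes not called, 7.95% peaked at 0-6hpi, 6.96% at 6-12hpi and 13.6% at 12-18hpi. Among the 1303 that fell, 652 (50.0%) had their highest mean in MII oocytes, against 19.0% of those not called. A fall from MII by itself makes an MII peak more likely.

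**Figure D5:**
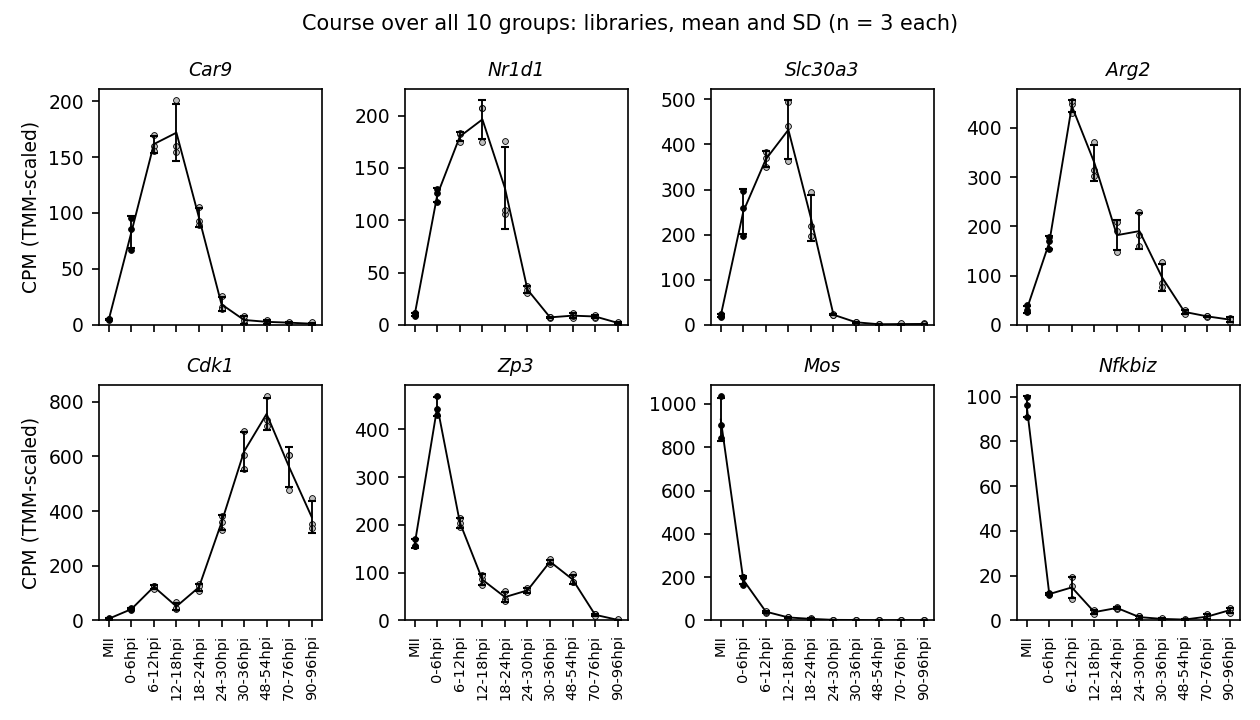
TMM-scaled CPM (vertical, from 0) of 8 genes in MII oocytes and the 9 labelling windows (horizontal, hours post insemination); points are libraries and the line joins the means with SD bars (n = 3 per group). Car9, Nr1d1 and Slc30a3 peak at 12-18hpi, Arg2 at 6-12hpi, Zp3 at 0-6hpi and Cdk1 at 48-54hpi, and Mos and Nfkbiz are highest in MII oocytes.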

How the data were processed

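RNA was treated with iodoacetamide and primed with oligo-dT in a modified Smart-seq2 protocol, per the labels' protocols, so transcript amount and tail length cannot be told apart. Per the file headers, the authors' table holds read counts per gene. One record (Nyx) is damaged and was left out; because of it, the deposited 90-96hpi replicate 3 column was entered under the unit expected counts. The submitters' processing notes name Trim Galore 0.6.10, STAR 2.7.10a, SAMtools 1.12, Bowtie2 2.4.2, Picard 2.20.4, deepTools 3.5.4 and mm10, with no roles. The counting tool and its use of strand are not given in the sources used here, so overlapping and antisense genes cannot be parted.

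Groups and replicate numbers come from the sample titles. A model of all 30 window libraries was made in edgeR 4.0.16 (R 4.3.3; filterByExpr with minimum count 10 and minimum total 15, TMM, robust quasi-likelihood F-test, two-sided), with Benjamini-Hochberg adjustment over all genes tested and a threshold of 0.05. The SE is the size of the log2 fold change divided by the square root of F. Genes named are, among called genes, the 15 highest and 15 lowest by log2 fold change and the 10 largest gains and losses in CPM, given 20 CPM or more in the higher group, libraries that do not overlap and an ordinary symbol; up to 4 called members of each list by adjusted p; and any member of the arrest, egg surface, decay and tail lists. Other genes (Bmp15, Gdf9, Ooep, Khdc3, Dppa3, Nlrp5, Padi6, Zscan4d, the markers and further mitochondrial genes) were named after their values were seen. Some genes that the rule names are not reported here. The members and lists were chosen with earlier results of these data known. Other settings were DESeq2 1.42.0, its size factors within edgeR, total count scaling, all genes unfiltered, a replicate block, the 6 libraries alone, a minimum log2 fold change of 1 and single libraries left out. Leaving out mitochondrial genes and keeping genes of at least 1 CPM were added after seeing the data. The fit was tested on simulated data.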

Additional observations from a re-analysis of the deposited data

How the results depend on the processing

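The 3441 calls became 4443 with the 6 libraries alone and 2631 to 2901 when 1 library was left out (1659 to 1898 higher, 961 to 1237 lower). Falls numbered 1344, but 2221 with DESeq2, 2262 with the 6 libraries alone and 762 with total count scaling; the cause was not tested. With a minimum log2 fold change of 1 there were 1716 calls, 295 of them falls. The replicate block gave 3350 calls (2055 higher, 1295 lower). Deviations of same-numbered MII and 0-6hpi libraries from their group means correlated at r = 0.0437, -0.00868 and -0.0358. These values cannot tell if same-numbered samples shared animals or a preparation, which the sources used here do not give. Of 200 named genes called, 184 were still called in the same direction with total count scaling and 172 to 185 when 1 library was left out, and 0 reversed in any setting. These genes were picked by their calls in the same counts, so the lack of reversals is no independent support. The median of 7 of 35 lists changed sign with total count scaling. Genes with few reads are undecided at this depth.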

Other observations

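Some mitochondrially encoded genes were nearly absent from the counts. In the 6 libraries mt-Co2 had 0 reads, mt-Atp6 had 1 read in MII replicate 3 and 0 elsewhere, and mt-Atp8 had 1 read in each of MII replicates 2 and 3 and 0-6hpi replicate 2. These 3 genes were not tested. The neighbouring mt-Co3 had 43 to 92 reads per library, while mt-Cytb had 27473 to 41591.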
